A study of Homo sapiens with 5 samples.

Results

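Peaks of both PRDM11 antibodies overlapped at a set of sites in U2932 lymphoma cells at which no RNA polymerase II peak was called. These polymerase-free shared regions are described here. Regions were chosen by called peaks: an antibody 1 peak had to share 1 bp or more with an antibody 2 peak and none with an RNA polymerase II peak, all in lists called against IgG on the human build hg19. The rule kept 1972 of the 13499 antibody 1 peaks (14.6%). Overlap with antibody 2 and absence of polymerase II therefore chose the regions and are no result about them. The antibody 2 list held 465837 peaks with a median width of 123 bp, its minimum, and the polymerase II list held 50161. All antibody 1 peaks had a median of 3 other antibody 2 peaks within 5000 bp, so an overlap of 1 bp is a loose criterion. How many overlaps would arise by position alone was not tested. The remaining antibody 1 peaks served for comparison: 4403 were shared and carried polymerase II, 3043 overlapped polymerase II only, and 4081 overlapped neither.

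U2932 is an established human lymphoma cell line, here untreated. Cross-linked, sonicated chromatin was precipitated with rabbit polyclonal anti-PRDM11 antibody 1 or antibody 2, both non-commercial, or with an antibody to RNA polymerase II, and rabbit IgG and unprecipitated input were the controls. The 5 libraries included no replicates, so nothing below could be tested between conditions. Shares carry exact (Clopper-Pearson) 95% binomial intervals, which count peaks as independent and describe counting error alone. The lists give positions without read counts, so depth is unknown, and because no hg19 gene annotation or genome was used, regions are given by position and not by gene or sequence. Whether the cells carried their B cell markers was not checked, since peaks do not measure expression.

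PRDM11 belongs to a family of nuclear proteins named for the PR domain, which is related to the SET domain of histone methyltransferases; several members of the family are known as regulators of transcription in development and in blood cells. RNA polymerase II transcribes protein-coding genes, and in ChIP experiments it is usually most concentrated just downstream of active gene starts, where it pauses. A site without a polymerase II peak can be a silent gene start, a distal element, or a place where the enzyme is present below the calling threshold, and peak lists alone do not separate these.

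The regions were densest directly beside polymerase II peaks and thinned out with distance. Polymerase II lay within 1000 bp of 719 regions, or 36.5% (34.3% to 38.6%). Over all 6053 antibody 1 peaks that touched no polymerase II peak, 24.0% lay that close. Another 176 regions (8.92%) were between 1 and 5 kb away, 513 (26.0%) were between 5 and 50 kb away, and 564, or 28.6% (26.6% to 30.7%), lay more than 50 kb away, where 37.9% of the 6053 peaks lay. The median distance was 8959 bp, with quartiles at 367 bp and 65640 bp. Distance was counted as the bases between the edges of the 2 peaks, and 2 regions adjoined a polymerase II peak with 0 bases between.

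Crowding near polymerase II fell off over a short distance. The first 100 bp from a polymerase II edge held 157 regions, the stretch of 401 to 500 bp held 65, and the whole stretch from 1 to 2 kb held 78. Expressed per kb of distance this was 1570, 650 and 78 regions, and 4.22 per kb between 50 and 100 kb. The larger class of antibody 1 peaks matched by neither other antibody had 1510, 600, 143 and 8.5 per kb in these stretches. The fall is therefore not particular to the shared regions. Counts per kb of distance were not adjusted for how much of the genome lies at each distance. The polymerase II peak lay at the lower coordinate for 979 regions and at the higher for 993, so neither side was favoured. Antibody 1 peaks matched by neither other antibody were farther out, with a median distance of 30722 bp, 18.0% (16.8% to 19.2%) within 1000 bp and 42.4% (40.9% to 43.9%) beyond 50 kb. The intervals of the 2 classes did not overlap for either share.

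**Figure D1:**
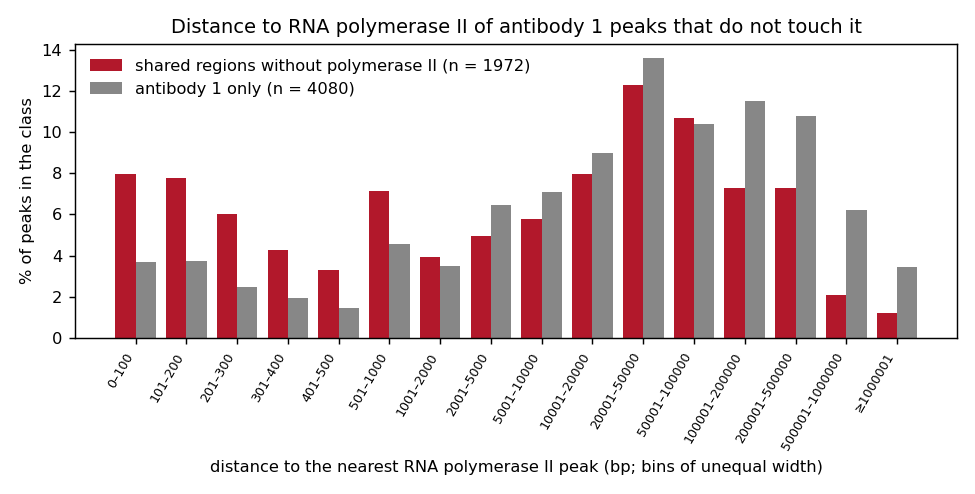
Percent of peaks (vertical axis) by distance in bp to the nearest RNA polymerase II peak (horizontal axis, bins of unequal width) for the 1972 shared regions without polymerase II (red) and for antibody 1 peaks matched by neither other antibody (grey; 1 of the 4081 lies on a chromosome without polymerase II peaks and is in no bin). The red bars are the taller ones in every bin up to 2000 bp and again between 50 and 100 kb, and the grey bars are the taller ones in the other bins.

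The difference in closeness was seen in narrow peaks and was not resolved in wide ones. Among peaks of the minimum width of 123 bp, 27.6% (22.4% to 33.3%) of the polymerase-free shared regions and 10.0% (8.72% to 11.5%) of the antibody 1 only peaks had polymerase II within 1000 bp. At 124 to 199 bp the share was 38.9% (35.2% to 42.7%) among the former, and 382 of 1735 of the latter had it (interval 20.1% to 24.0%). At 200 to 299 bp they were 41.2% (36.7% to 45.8%) and 34.4% (29.5% to 39.6%), with overlapping intervals. At 300 to 499 bp the order was the opposite, 35.2% (30.2% to 40.5%) against 39.3% (29.1% to 50.3%), from only 89 antibody 1 only peaks. Width is set by the same list as the rule and is given as a description.

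**Figure D2:**
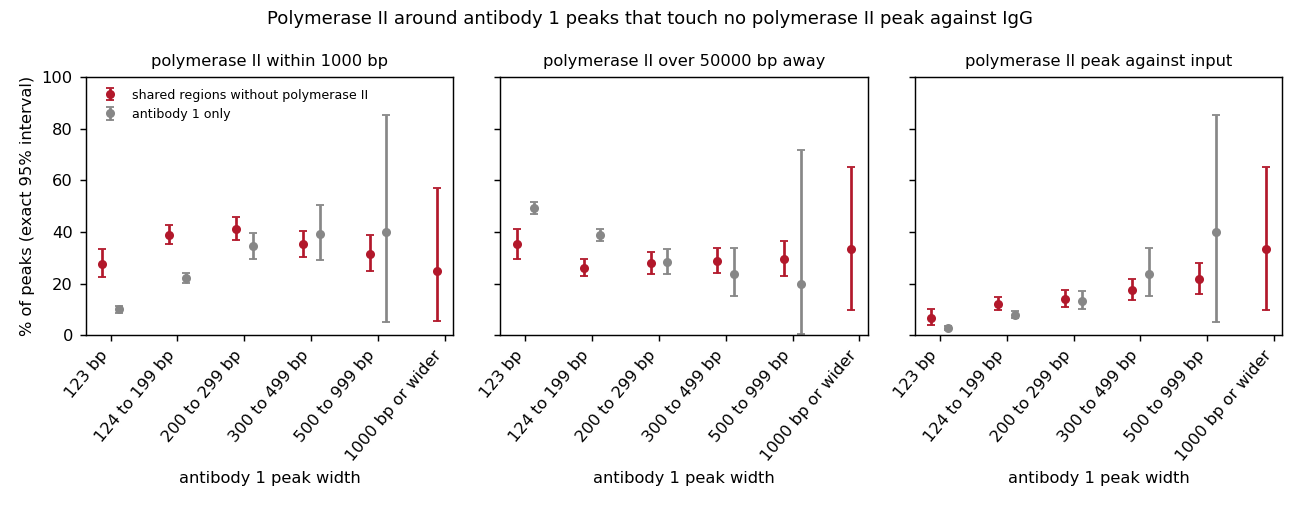
Percent of peaks (vertical axis, with exact 95% intervals) by antibody 1 peak width (horizontal axis) with a polymerase II peak within 1000 bp, with none within 50000 bp, or with one in the list called against input. Red marks shared regions without polymerase II and grey marks antibody 1 only peaks, of which 5 were 500 to 999 bp wide and none was wider. Red and grey separate in the 2 narrowest classes of each panel and overlap from 200 bp on.

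The edge of the rule runs through a continuous range. Just inside it, 13 regions lay at most 10 bp and 157 at most 100 bp from a polymerase II peak. Just outside it, 14 shared regions overlapped polymerase II by at most 10 bp and 194 by at most 100 bp, while the median overlap among all 4403 excluded regions was 253 bp. The nearest regions were on chromosome 6 at 169613152 to 169613282, directly adjoining a 152 bp polymerase II peak, on chromosome 13 at 21277566 to 21277742, directly adjoining a 315 bp peak, and on chromosome 6 at 80656875 to 80657094, which lay 2 bp from a 592 bp peak. All 3 were overlapped by a polymerase II peak called against input, but only at the edge beside the listed peak. These peaks ran from 169613281 to 169613435, from 21277243 to 21277576 and from 80657077 to 80657725. At the other edge, 53 regions were overlapped by antibody 2 over at most 10 bp in all, and 52 antibody 1 only peaks missed an antibody 2 peak by at most 10 bp.

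Regions beside polymerase II mostly neighboured antibody 1 peaks that did carry it. Of the 719 regions within 1000 bp, 359, or 49.9% (46.2% to 53.6%), had a shared region with polymerase II within 1000 bp. Some antibody 1 peak with polymerase II was that close to 452 (62.9%). Closeness to polymerase II itself favours such neighbours. The same shares were not computed for antibody 1 only peaks near polymerase II, so whether they are particular to the regions is unknown. In 89 of them (12.4%) the antibody 2 peak reached into a polymerase II peak although the antibody 1 peak did not. Polymerase II lay within 1000 bp on both sides of 90 regions (12.5%), so for most of the 719 it was called on 1 side. The nearest polymerase II peak of each of the 719 regions had a median width of 286 bp, against 246 bp for all polymerase II peaks. The widest polymerase II peak touched by each shared region with polymerase II had a median of 532 bp. That is a different measure, since overlap and the choice of the widest both favour wide peaks.

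Regions far from polymerase II had PRDM11 antibody peaks of about the same size as those beside it. Median antibody 1 width was 207 bp in the near class, 193 bp at 1 to 5 kb, 204 bp at 5 to 50 kb and 203 bp beyond 50 kb. The widest antibody 2 peak in a region had a median of 193 bp, 179 bp, 168 bp and 176 bp in the same order. Antibody 2 covered a median of 62.7% of the antibody 1 peak in the near class, 53.8% at 1 to 5 kb, 61.8% at 5 to 50 kb and 62.6% beyond 50 kb. Peaks of 500 bp or wider made up 8.76% (6.80% to 11.1%) of the near class and 10.6% (8.22% to 13.5%) of the far class, beside 10.7% of all antibody 1 peaks. Shared regions with polymerase II were wider, with 27.1% (25.8% to 28.4%) at 500 bp or more and a median of 321 bp against 204 bp.

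The antibody 2 match varied widely between regions. A single antibody 2 peak touched 1746 of the 1972 regions (88.5%). Over all 1972, the midpoint of the widest antibody 2 peak lay a median of 73.0 bp from that of the antibody 1 peak. In 730 regions, or 37.0% (34.9% to 39.2%), the widest antibody 2 peak had the list's minimum width of 123 bp. In shared regions with polymerase II, whose antibody 1 peaks were wider, the share was 24.7% (23.4% to 26.0%). At an antibody 1 width of 123 bp the shares were 61.1% (55.1% to 66.9%) without and 49.1% (41.3% to 56.9%) with polymerase II. They were 44.2% and 39.6% at 124 to 199 bp, and 34.0% in both at 200 to 299 bp. The intervals overlapped in each of these width classes. In 881 regions (44.7%) the widest antibody 2 peak was 200 bp or wider. With antibody 1 and antibody 2 both limited to peaks of 200 bp or more, 595 regions met the rule, of which 39.0% lay within 1000 bp of polymerase II and 27.7% beyond 50 kb.

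Around the regions, antibody 2 coverage fell with distance from the midpoint, and polymerase II peaks were arranged by class. At the midpoint of regions beyond 50 kb, 66.3% lay under an antibody 2 peak, which the rule favours. Between 500 and 1000 bp from the midpoint the mean share was 9.90%, and between 4000 and 5000 bp it was 3.26%. In the near class the values were 63.8%, 17.7% and 3.68%. The same profile is not given for other antibody 1 peaks. Other antibody 2 peaks within 5000 bp numbered a mean of 3.69 for the regions. The mean was 3.34 for shared regions with polymerase II and 3.17 for all antibody 1 peaks, and the median was 3 in each. Polymerase II against IgG, absent from the regions by rule, covered a mean of 24.4% of positions 500 to 1000 bp from the midpoint of the near class and 2.47% of positions 4000 to 5000 bp away.

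**Figure D3:**
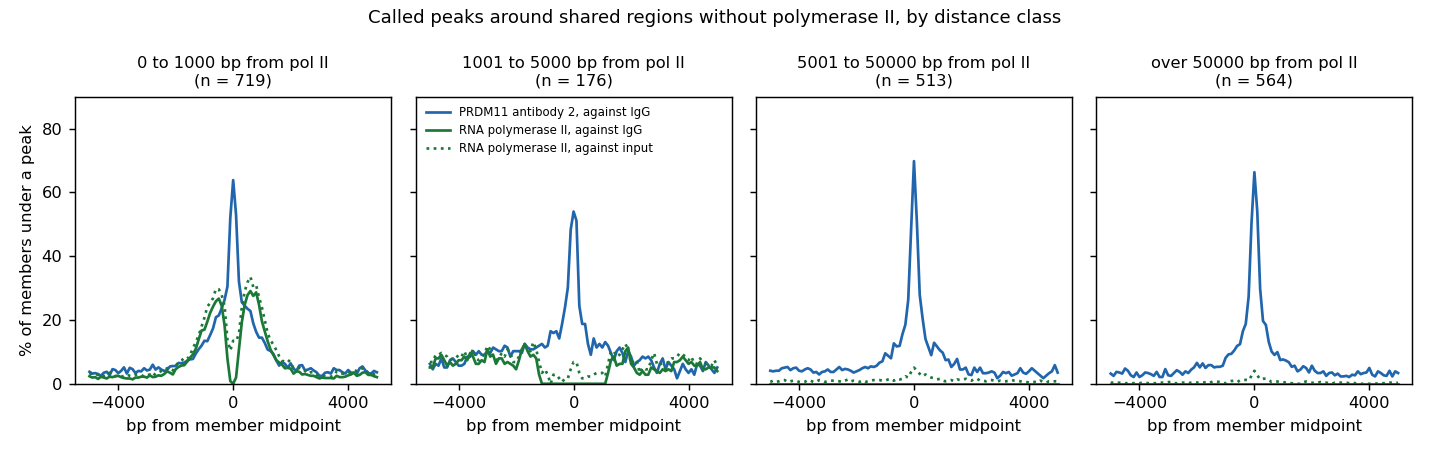
Percent of regions under a called peak (vertical axis) by distance in bp from the region's midpoint (horizontal axis), in 4 classes of distance to polymerase II (pol II). Blue is antibody 2, solid green polymerase II against IgG and dotted green polymerase II against input. In the near class green rises on both sides of a central dip; in the other classes the dotted line has a small central rise, to 4.08% beyond 50 kb.

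Calling polymerase II against input in place of IgG put a polymerase II peak over 1 bp or more of 273 regions, or 13.8% (12.3% to 15.4%). Over the 6053 antibody 1 peaks without polymerase II the share was 8.76%. Both lists come from 1 polymerase II library, so this shows the effect of the control and is no second measurement. The share fell with distance, from 24.2% (21.1% to 27.5%) in the near class to 11.9% (7.54% to 17.7%), 9.16% (6.81% to 12.0%) and 5.50% (3.76% to 7.71%) in the next 3 classes. In 52 of the 273 the peak against input also touched a polymerase II peak against IgG, all in the near class; there the call against input reached from the region to a peak already listed beside it. The remaining 221 regions had a polymerase II peak that overlapped no polymerase II peak called against IgG. Median antibody 1 width was 248 bp at the 273 regions and 199 bp at the other 1699.

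In the classes beyond 5 kb, the added polymerase II calls covered more of the region midpoints than of the flanks. Beyond 50 kb, polymerase II against input covered 4.08% of region midpoints, a mean of 0.709% of positions 500 to 1000 bp away and 0.210% of positions 4000 to 5000 bp away. At 5 to 50 kb the same values were 5.07%, 1.48% and 0.735%. Flanks in the classes beyond 5 kb lack polymerase II against IgG by the way the classes were made. The near class, with 174 of the 273 regions, did not show this pattern. There polymerase II against input covered 13.5% of midpoints, 27.8% of positions 500 to 1000 bp away and 3.31% of positions 4000 to 5000 bp away. At 1 to 5 kb the values were 6.82%, 2.70% and 7.54%. The polymerase II peaks against input on the regions had a median width of 184 bp, against 239 bp in that list as a whole. The rule left out regions that touched a polymerase II peak against IgG, and the whole list was not filtered this way. The medians are therefore not for like sets. Blocks of closely spaced input-list peaks, defined in 1-Mb bins, held 23 of the 273 regions with such a peak, or 8.42% (5.42% to 12.4%), and 41 of the 1699 without, or 2.41% (1.74% to 3.26%); their part in the added calls was not tested.

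The PRDM11 calls were largely kept when input replaced IgG, near polymerase II and far from it. For each antibody both lists come from the same library, so this too is no second measurement. The lists against input were also larger, which favours keeping a call. Antibody 1 had 54038 peaks against input and 13499 against IgG, and antibody 2 had 486796 and 465837. An antibody 1 peak against input was present at 1716 regions, or 87.0% (85.5% to 88.5%), beside 81.3% of all antibody 1 peaks. An antibody 2 peak against input was present at 1868 regions, or 94.7% (93.6% to 95.7%), beside 95.4% of all shared regions. Both were present at 1667 regions (84.5%), and by distance class at 87.3%, 82.4%, 83.2% and 82.8% from near to far. Among shared regions with polymerase II, which were wider, both were present at 92.8% (91.9% to 93.5%). At 123 bp both were present at 56.7% (50.6% to 62.7%) without and 68.9% (61.2% to 75.8%) with polymerase II. The shares were 79.9% and 85.1% at 124 to 199 bp, and 91.5% and 92.2% at 200 to 299 bp. The intervals overlapped in each of these width classes. The share that kept the antibody 1 call rose with width: it was 58.5% (52.5% to 64.4%) of the 275 regions of 123 bp, 83.3% (80.3% to 86.1%) of the 678 regions of 124 to 199 bp and 94.7% (92.2% to 96.5%) of the 468 regions of 200 to 299 bp, and all 202 regions of 500 bp or wider kept it.

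**Figure D4:**
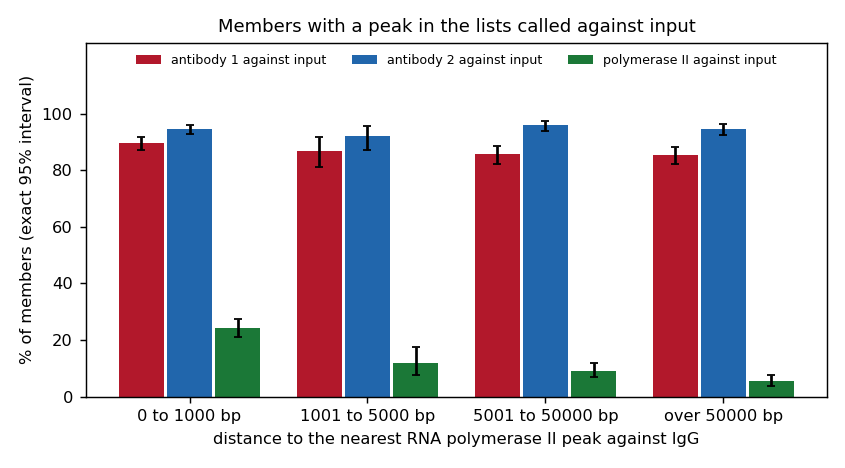
Percent of regions (vertical axis, with exact 95% intervals) that held a peak of antibody 1 (red), antibody 2 (blue) or polymerase II (green) in the lists called against input, by distance to the nearest polymerase II peak against IgG (horizontal axis). The 2 PRDM11 antibodies stay at 85.3% or more in every class, and polymerase II falls from 24.2% to 5.50%.

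A core of 436 regions, 22.1% (20.3% to 24.0%) of all, lay beyond 50 kb from polymerase II against IgG, held none against input, and kept both PRDM11 calls against input; 53 of them were 500 bp or wider. The 5 widest regions beyond 50 kb all belonged to it. On chromosome 8, 141108480 to 141110132 (1653 bp) had 3 antibody 2 peaks, the widest 827 bp, and lay 357298 bp from polymerase II. On chromosome 15, 48936670 to 48937966 (1297 bp) had 3 antibody 2 peaks up to 797 bp and lay 75044 bp away. On chromosome 6, 116782989 to 116784061 (1073 bp) had 1 antibody 2 peak of 570 bp and lay 108004 bp away. On chromosome 12, 93964486 to 93965555 (1070 bp) had 2 antibody 2 peaks and lay 102966 bp away. The last, on chromosome 7 at 64974116 to 64975066 (951 bp), lay wholly inside an antibody 2 peak of 1045 bp and 135130 bp from polymerase II. None of these 5 is a minimum-width match.

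The 3 regions farthest from polymerase II were 172, 524 and 280 bp wide. On chromosome 13, 83783625 to 83783796 (172 bp) was 3727909 bp from the nearest polymerase II peak against IgG and 617261 bp from the nearest against input. On chromosome 9, 10612593 to 10613116 (524 bp) was 2812706 bp away and covered to 92.4% by an antibody 2 peak of 547 bp. On chromosome 7, 80548518 to 80548797 (280 bp) was 2243214 bp away, with an antibody 2 peak of 439 bp over 98.9% of it. Each was also called against input by both antibodies, and each had 3 or 4 further antibody 2 peaks within 5000 bp. That number is ordinary, since all 13499 antibody 1 peaks had a median of 3, with quartiles at 2 and 4.

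The widest region of all lay in the near class, on chromosome 8 at 128749175 to 128751282 (2108 bp). Its 4 antibody 2 peaks covered 83.3% of it, and a 481 bp polymerase II peak ended 464 bp from it. Against input the polymerase II peak came within 461 bp and still did not touch it. Next in the near class, the region on chromosome X at 46433586 to 46434744 (1159 bp) was 322 bp from polymerase II, and that on chromosome 3 at 185825494 to 185826585 (1092 bp) was 140 bp away. The chromosome X region was overlapped at 1 edge by a 352 bp polymerase II peak against input, from 46433395 to 46433746. The chromosome 3 region held one of 216 bp and lay in one of the blocks. On chromosome 5, 139029777 to 139030769 (993 bp) was overlapped at 1 edge by a 143 bp polymerase II peak against input. On chromosome 16, 1875655 to 1876626 (972 bp), 149 bp from a 531 bp polymerase II peak, held none.

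Between these extremes, the widest region 1 to 5 kb from polymerase II was on chromosome 15 at 76632290 to 76633542 (1253 bp). It lay 2984 bp from a polymerase II peak of 1056 bp, and antibody 2 covered only 37.1% of it. The others in that class lay 3432 bp from polymerase II on chromosome 6 (99283076 to 99284020), 2957 bp on chromosome 16 (67189025 to 67189948), 3893 bp on chromosome 17 (42440474 to 42441309) and 2008 bp on chromosome 5 (42994547 to 42995305). Of these 4, the chromosome 16 region held a polymerase II peak against input, of 165 bp. At 5 to 50 kb the widest was on chromosome 12 at 42876539 to 42878288 (1750 bp), 13279 bp from a polymerase II peak of the minimum width. It held a 212 bp polymerase II peak against input, as the next one, on chromosome 20 (21080729 to 21081822), held one of 161 bp. The regions on chromosome 6 (24360018 to 24361066), chromosome 1 (110626550 to 110627550) and chromosome 5 (42949389 to 42950386) held none, and antibody 2 covered 85.4%, 84.1% and 79.6% of them.

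Many regions had company. Another antibody 1 peak of any kind lay within 1000 bp of 972 regions, or 49.3% (47.1% to 51.5%), where 36.0% of all antibody 1 peaks had one; for shared regions with polymerase II the share was 48.1% (46.6% to 49.6%). It was 71.2% (67.7% to 74.5%) in the near class and 36.5% (32.5% to 40.6%) beyond 50 kb. Another polymerase-free shared region lay within 1000 bp of 14.7% (12.2% to 17.5%) of the near class and of 28.2% (24.5% to 32.1%) of the far class. The rule bears on this contrast. Beyond 50 kb no neighbour within 1000 bp can touch polymerase II, so every shared neighbour is counted. In the near class, shared neighbours with polymerase II are left out. Joined over gaps of at most 5000 bp, 518 regions formed 229 groups of 2 or more, and 139 of these groups (308 regions) had every member over 5000 bp from polymerase II. Grouped peaks are not independent of each other, so binomial intervals over peaks are too narrow to that extent.

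The 11 groups of 4 or more were looked at after their sizes were seen. In 9 of them no polymerase II peak against IgG lay inside the span. The largest, on chromosome 4 from 113436331 to 113445332, held 7 regions of 138 to 808 bp over 9002 bp, with 11 antibody 2 peaks up to 775 bp and polymerase II no nearer than 110518 bp. All 7 were called against input by both antibodies, and 1 held a polymerase II peak against input. On chromosome 17, 5 regions of 123 to 908 bp lay between 59488172 and 59490866, at least 449426 bp from polymerase II, with no polymerase II peak against input inside the span; 4 of the 5 kept their antibody 1 call against input and 5 their antibody 2 call. On chromosome 12, 4 regions between 89745492 and 89748108 lay at least 170328 bp away, and on chromosome 5, 4 regions between 42949389 and 42952477 lay at least 39597 bp away; neither span held polymerase II against input. On chromosome 8, 4 regions between 134582273 and 134585053 lay at least 69199 bp away, and 1 of them held a polymerase II peak against input. The other 6 groups, on chromosomes 1, 2, 3, 13 and 22, came within 86 to 550 bp of polymerase II at their nearest member.

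**Figure D5:**
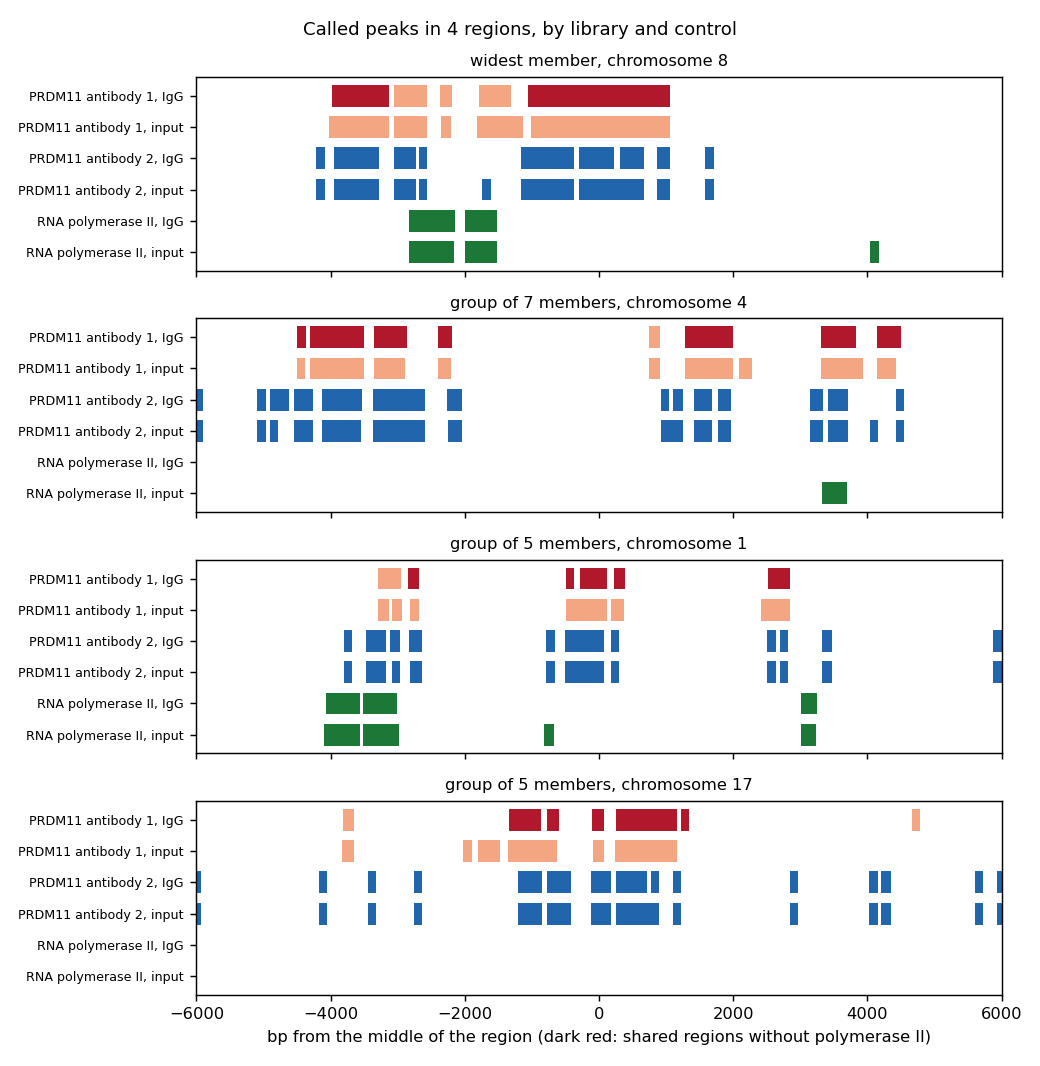
Called peaks of each library, against IgG and against input (rows), in bp from the middle of the region or group (horizontal axis). Shown are the widest region and the 3 largest groups without a polymerase II peak against IgG in their span. Against input, the spans on chromosomes 4 and 1 held 1 polymerase II peak each. Dark red marks shared regions without polymerase II, light red other antibody 1 peaks, blue antibody 2 and green polymerase II. The groups on chromosomes 4 and 17 show clustered peaks of both antibodies with no green bar against IgG, and the group on chromosome 1 lies between polymerase II peaks.

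Over all chromosomes, 1972 of 6375 shared regions were polymerase-free. On chromosome 3 the share was lowest, 23.3% (19.2% to 27.8%), and on chromosome 7 it was highest, 37.3% (32.1% to 42.9%). These are the extremes picked from all chromosomes, and whether the share differs between chromosomes was not tested. Chromosome Y had no shared region. For the share beyond 50 kb, which was 28.6% over all polymerase-free shared regions, the extremes were chromosomes 4 and 19. On chromosome 4, 49 of 91 regions, or 53.8% (43.1% to 64.4%), lay beyond 50 kb, while on chromosome 19 it was 13 of 128, or 10.2% (5.52% to 16.7%). Chromosome 19 is known for its high gene density, and the spacing of polymerase II peaks differs between chromosomes, which was not adjusted for.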

How the data were processed

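The authors deposited 6 peak lists for 3 ChIP libraries, each called once against IgG and once against input at a q threshold of 0.1, per the file names. The lists hold 3 columns (chromosome, start, end, in bp) and no score, p-value or read count. Build hg19, MACS2 2.0.9, SAMtools and Bowtie 0.12.7 appear in the submitters' processing notes without roles or settings, and no source used here describes duplicate handling. A low threshold and the minimum peak width set how many narrow peaks enter and so how many overlap.

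Starts are printed counted from 1. Regions were grouped by the antibody in the labels, and classes at 1000, 5000 and 50000 bp were fixed with the alternatives, with earlier results of these data known; the members too were chosen that way. Named regions are the 10 widest, the 5 widest per distance class, and the 3 nearest to and 3 farthest from polymerase II. Gene starts, GC content, motifs and score thresholds were planned and not run, because the lists hold no score and no hg19 annotation or genome was used here. Blocks were 1-Mb bins in which antibody 1 had 50 or more peaks against input and no fewer than 5 times the sum of its IgG-list number and 1. Python 3.11.15, NumPy 2.4.6, pandas 2.3.3, SciPy 1.17.1 and matplotlib 3.10.9 were used. The code was tested on simulated data, where 100% of 2000 overlap states were recovered, and bedtools 2.31.1 gave the same 1972 regions.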

Additional observations from a re-analysis of the deposited data

How the results depend on the processing

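Each value was recomputed under up to 9 alternatives; values outside the exact interval of the reported one, or beyond a factor of 1.5 for the count, were these. With all lists called against input there were 5809 regions (3027 of them outside the blocks), 39.8% within 1000 bp of polymerase II, 19.4% beyond 50 kb, and a median width of 172 bp. With at least 50% of the peak covered by antibody 2, 1256 regions remained. With antibody peaks of 200 bp or more there were 595 regions, 39.0% within 1000 bp, 19.3% with polymerase II against input, and a median of 374 bp. Requiring no polymerase II within 500 bp gave 10.1%, 40.5% beyond 50 kb and 8.68% with polymerase II against input, the first 2 by construction. With no polymerase II in either list, 32.1% lay within 1000 bp and 31.4% beyond 50 kb. Regions kept by both antibodies against input had polymerase II against input in 16.0% and a median of 223 bp. With antibody 2 peaks also free of polymerase II, an alternative chosen after seeing the data, 33.5% lay within 1000 bp. Leaving out the blocks kept the 5 values within these limits. Limiting to chromosomes 1 to 22 and X removed no region, so it tested nothing. For differences not set by construction, the cause was not tested. The share with polymerase II against input is 0 by construction where that list defines the regions and was not computed there. Not run were alternatives on gene starts, GC content and score. No paired analysis was possible because each antibody has 1 library.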
